A study of Mus musculus with 18 samples.

Results

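Cadherins are cell surface proteins through which neighbouring cells bind each other. The genes described here are those whose mouse symbol is Cdh, Pcdh or Pcdhb followed by digits only, after the Ensembl identifiers of the count table were matched to symbols. This rule took 56 of 37224 genes. They comprise 5 type I classical cadherins, 13 type II classical cadherins, 5 other numbered cadherins, 11 non-clustered protocadherins and the 22 beta protocadherins of the clustered family. The rule used no measured value. Genes with a letter after the number (such as the X-linked Pcdh11x), the alpha and gamma protocadherins and the desmosomal cadherins fall outside it.

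RNA was measured in 18 libraries of cells derived from mouse embryonic stem cells of strain C57BL/6, in 6 groups of 3 libraries. The series addresses the role of the homeodomain transcription factor Hoxb1 in neuromesodermal progenitors (NMPs, which can form both spinal cord and paraxial mesoderm) and in neural progenitors. The sources used here do not say whether the libraries of a group came from separate cultures or whether the groups came from 1 line or clone, so p-values measure only the spread between these libraries. The null NMPs carried the genotype Hoxb1 null and the other NMPs were wild type. All 4 groups of neural progenitors came from the same kind of differentiation. They were labelled as expressing Hoxb1 with SAG and doxycycline (DOX), not expressing Hoxb1 with SAG, expressing Hoxb1 with DOX, and not expressing Hoxb1 with no agent added. SAG is a small molecule that activates Smoothened and so hedgehog signalling. DOX was given to every culture expressing Hoxb1 and to no other, so Hoxb1 and DOX cannot be told apart. A difference between the null and wild-type lines other than Hoxb1 is likewise not separated. Nor do these sources name the promoter that drives the induced Hoxb1.

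Classical cadherins bind across the gap between cells in the presence of calcium, mostly to cadherins of their own kind, and hold on to the actin skeleton through beta-, alpha- and p120-catenin. In the embryo the exchange of E-cadherin for N-cadherin accompanies the formation of the neural plate and of mesoderm, and type II cadherins later mark subdivisions of the hindbrain and spinal cord and pools of motor neurons. Non-clustered protocadherins do not bind the classical catenins; they act in cell sorting, for example in the paraxial mesoderm, and in axon growth. Clustered protocadherins are expressed in varying combinations by single neurons and serve self-recognition of their branches. Each is transcribed from its own promoter, for most of them under control of CTCF and DNA methylation.

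Libraries held 13301476 to 26974315 counts, and the neural progenitors with SAG were counted more deeply (22610407 to 26974315) than those without (13301476 to 14505711). Levels below are in CPM, counts divided by each library's effective size and scaled in the usual way, and levels of different genes are compared only per kilobase of summed exon length (CPM per kb). Hoxb1 itself had 14.2 ± 0.811 CPM in null NMPs and 237 ± 13.7 CPM in wild-type NMPs (SD, n = 3 each). It was thus 16.7-fold lower in null NMPs but still present as RNA, and the sources used here do not describe the null allele. In neural progenitors it had 614 ± 19.2 CPM with Hoxb1 and SAG against 0.475 ± 0.0684 CPM with SAG alone, and 336 ± 17.2 CPM with Hoxb1 alone against 0.37 ± 0.298 CPM with neither. The 8 NMP markers summed to 1450 to 1530 CPM per library in null NMPs and 1670 to 1840 CPM in wild-type NMPs, and to 411 to 704 CPM in neural progenitors, where Cdx1 was at 0 in both groups with Hoxb1. Sox2, which is also in the neural progenitor list, made up most of the sum in neural progenitors (group means 406 to 641 CPM, against 15.3 CPM in null and 12.5 CPM in wild-type NMPs), and T, the marker of nascent mesoderm, averaged 3.61 to 30.8 CPM there, against 1020 CPM in null and 1100 CPM in wild-type NMPs. The 7 neural progenitor markers summed to 1690 to 3020 CPM in neural progenitors and to 479 to 520 CPM in NMPs. The neural progenitors also held RNA of other cell types. Their 7 mesenchyme markers summed to 2190 to 2370 CPM with Hoxb1 and SAG, 2190 to 2230 CPM with SAG, 973 to 1010 CPM with Hoxb1 and 436 to 461 CPM with neither. In these bulk samples, fewer cells of a type and less RNA per cell cannot be told apart.

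For 6 members on which the results below turn, the 250 bases before the transcription start are shown, from RefSeq on GRCm38.p6, so that the letters of these promoters stand beside their values. The RefSeq table held such windows for 22 of the 56 genes. Each sequence runs 5′ to 3′ towards the start on the gene's own strand, and capitals mark CCAAT or its reverse complement ATTGG, the CCAAT box bound by the factor NF-Y. The windows are chr14:79771313-79771562 (minus strand) for Pcdh8, chr3:45378148-45378397 (plus) for Pcdh10, chr14:84443313-84443562 (plus) for Pcdh17, chr3:49757317-49757566 (minus) for Pcdh18, chrX:133688994-133689243 (minus) for Pcdh19 and chr8:99416472-99416721 (minus) for Cdh8.
Pcdh8: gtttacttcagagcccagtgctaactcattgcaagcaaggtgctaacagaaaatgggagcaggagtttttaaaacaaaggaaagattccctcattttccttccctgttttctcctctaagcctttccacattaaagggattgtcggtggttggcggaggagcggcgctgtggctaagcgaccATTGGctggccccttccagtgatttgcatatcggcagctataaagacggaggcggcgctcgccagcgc
Pcdh10: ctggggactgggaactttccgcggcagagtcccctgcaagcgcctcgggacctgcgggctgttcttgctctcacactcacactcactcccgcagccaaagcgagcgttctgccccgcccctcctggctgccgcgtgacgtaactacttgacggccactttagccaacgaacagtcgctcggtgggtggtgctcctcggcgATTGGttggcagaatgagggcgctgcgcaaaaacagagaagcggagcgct
Pcdh17: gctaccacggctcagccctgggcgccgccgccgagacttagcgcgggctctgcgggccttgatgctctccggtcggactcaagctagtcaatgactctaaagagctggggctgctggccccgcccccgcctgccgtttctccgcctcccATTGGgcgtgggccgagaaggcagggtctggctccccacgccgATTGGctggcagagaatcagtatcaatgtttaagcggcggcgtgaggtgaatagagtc
Pcdh18: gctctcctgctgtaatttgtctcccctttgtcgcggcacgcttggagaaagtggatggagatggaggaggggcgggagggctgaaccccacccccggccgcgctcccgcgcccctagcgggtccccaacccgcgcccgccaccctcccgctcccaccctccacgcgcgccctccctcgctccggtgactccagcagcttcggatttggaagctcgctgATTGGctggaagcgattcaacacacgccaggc
Pcdh19: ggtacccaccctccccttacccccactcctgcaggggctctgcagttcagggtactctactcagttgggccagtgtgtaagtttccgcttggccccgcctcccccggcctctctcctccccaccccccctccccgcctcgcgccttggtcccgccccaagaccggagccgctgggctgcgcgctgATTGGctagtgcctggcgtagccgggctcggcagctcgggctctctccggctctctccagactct
Cdh8: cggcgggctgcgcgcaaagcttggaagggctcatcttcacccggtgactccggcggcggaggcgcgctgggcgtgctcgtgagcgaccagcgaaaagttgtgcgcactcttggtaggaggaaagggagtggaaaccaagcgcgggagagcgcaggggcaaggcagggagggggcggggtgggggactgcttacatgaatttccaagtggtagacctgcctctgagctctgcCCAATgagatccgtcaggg

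All 6 windows were rich in G and C except that of Pcdh8, at 51.2% against 63.2% to 69.2% in the other 5, with a median of 52.4% over all 32851 mouse windows. A CCAAT box on either strand was found in each of these 6 windows, 2 of them in that of Pcdh17, and in those of 14 of the 22 genes. The 22 genes had 25 windows, of which 15 held one, beside 33.8% of all windows. The motif was chosen after these sequences had been seen. A joint PBX-HOX motif (TGATNNAT, both strands) was found in 2 of the 25 windows, of Cdh9 and Cdh23, and in 7.68% of all windows. The GLI motif GACCACCCA, through which hedgehog signalling acts on its targets, was found on neither strand in any of the 22, and in 0.225% of all windows. These matches describe letters in short windows only. In 5 of the 6 genes shown, all but Pcdh19, a short stretch just after the RefSeq start was also found within a GENCODE transcript. Whether a GENCODE transcript begins at that start was not checked. All 6 windows lie directly beside the span of their gene in the count table.

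In NMPs the family was carried by a few genes. 20 of the 56 members reached 1 CPM in null NMPs and 19 did in wild-type NMPs, against 43 with Hoxb1 and SAG, 44 with SAG, 46 with Hoxb1 and 46 with neither in neural progenitors. Cdh1, which encodes E-cadherin of epithelia, had the highest level per length in NMPs, at 85.4 CPM per kb in null and 85 CPM per kb in wild-type cells. Cdh2, the N-cadherin of neural and mesodermal cells, followed at 42.8 CPM per kb in null and 48.3 CPM per kb in wild-type cells. Cdh11, a type II cadherin known from mesenchyme, and Pcdh7, which acts in the neural fold of Xenopus, came next at 27.2 and 19.5 CPM per kb in null NMPs and 18.9 and 18.5 CPM per kb in wild-type NMPs. In wild-type NMPs Cdh11 and Pcdh7 differed by less than the SD of Pcdh7 (0.777 CPM per kb). In neural progenitors with neither agent, Cdh2 led with 43.6 CPM per kb, followed by Cdh11 with 33.8, Cdh4 with 28.8 and Cdh6 with 28.4 CPM per kb, the last 2 within their spread of each other. With Hoxb1 alone Pcdh8 led with 44.5 CPM per kb, ahead of Cdh2 with 36.8 and Cdh11 with 36.5 CPM per kb, which again were within their spread. With SAG alone Cdh11 led with 48.3 CPM per kb, ahead of Cdh2 with 30.8 and Cdh1 with 28.3 CPM per kb. With Hoxb1 and SAG the leading members per length were Cdh11 at 63.6 and Pcdh8 at 45 CPM per kb, ahead of Cdh2 at 27.9 CPM per kb.

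**Figure D1:**
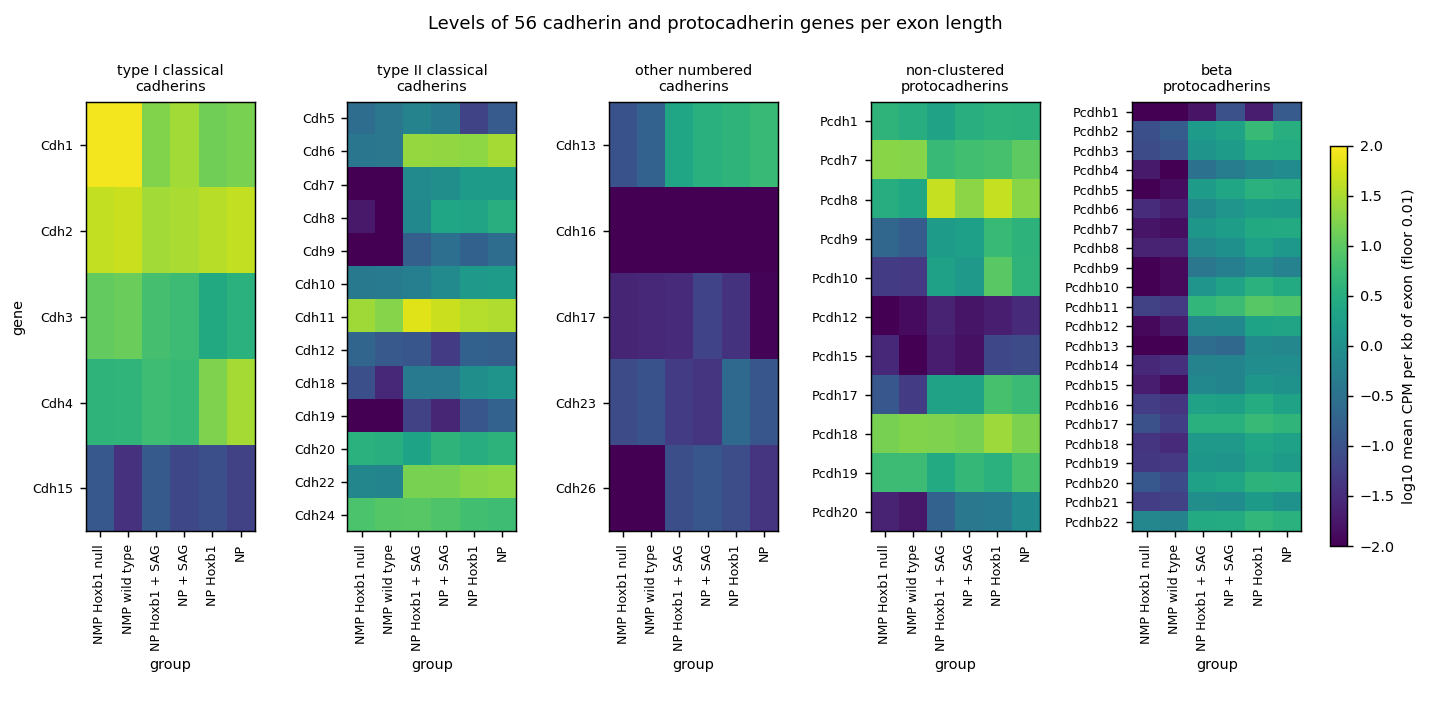
Mean level of each of the 56 genes (rows, by class) in the 6 groups (columns, 3 libraries each), coloured by the log10 of CPM per kb of exon, with a lowest value at which all lower levels are drawn. The beta protocadherins are near the bottom of the scale in both NMP groups, where Pcdhb22 alone reached 1 CPM, while Cdh1 and Cdh2 are near the top.

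The 22 beta genes, which lie in 1 cluster on chromosome 18, summed to 4.17 to 6.8 CPM per library in null NMPs and 4.4 to 5.32 CPM in wild-type NMPs. In neural progenitors they summed to 108 to 112 CPM with Hoxb1 and SAG, 122 to 126 CPM with SAG, 212 to 215 CPM with Hoxb1 and 177 to 181 CPM with neither. The 4 neural progenitor groups did not overlap in this sum. NMPs and neural progenitors are different cultures and library sets, so their levels are set side by side without a test. Some members were near or at the detection limit throughout. The kidney cadherin Cdh16 had no count in any library, which allows up to 0.111 to 0.226 CPM (3 counts of each library's total, counting error only). The means of Cdh9, Cdh15, Cdh17, Cdh19, Cdh26 and Pcdh12 were under 1 CPM in every group, and Cdh7, Cdh8 and Pcdh10 were under 1 CPM in every NMP library.

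Tests were edgeR quasi-likelihood F-tests over all genes that passed a filter on low counts, and calls were made below an adjusted p of 0.05. Changes are log2 ratios, given with their standard error (SE), of 3 against 3 libraries. Of the 56 members, 22 were tested in NMPs and 34 were not, 21 of them beta genes; 49 were tested in neural progenitors and 7 were not.

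Null NMPs had more RNA of Cdh11 and less of Cdh2 and Pcdh18 than wild-type NMPs, while the change of E-cadherin RNA was not called. Of the 22 tested members 3 rose and 5 fell in null relative to wild-type cells. That is 36.4% of those tested, beside 28.8% called in either direction over all 15032 genes (14.9% higher and 13.9% lower). The all-gene median of log2 changes was -0.00013.

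Cdh11 had 113, 117 and 114 CPM in null NMPs, against 79.9, 81 and 78.6 CPM in wild-type NMPs. All 3 null libraries lay above all wild-type libraries. The change was 0.52 (SE 0.043, edgeR adjusted p = 5.56e-09), a 1.44-fold rise. Cdh2 had 335, 357 and 344 CPM in null NMPs, against 394, 381 and 395 CPM in wild-type NMPs. Its null libraries all lay below, and it fell by 0.17 (SE 0.0362, edgeR adjusted p = 0.000831). Cdh1 had 391, 375 and 406 CPM in null NMPs, against 393, 379 and 394 CPM in wild-type NMPs. These libraries overlapped, with a change of 0.01 (95% interval -0.07 to 0.08, edgeR adjusted p = 0.905). Cdh3, which encodes P-cadherin, fell by 0.15 in null cells (edgeR adjusted p = 0.0468), with 45.5, 40.3 and 42.8 CPM in null and 48.8, 46.8 and 47.3 CPM in wild-type libraries. Cdh3 was not called by DESeq2 (adjusted p = 0.113), nor by edgeR with upper-quartile factors (0.0859) or the stricter filter (0.059). The edgeR call was also lost when any wild-type library or null replicate 2 was left out (adjusted p = 0.0987 to 0.216). Cdh24, a type II cadherin, had a change of -0.24 (edgeR adjusted p = 0.0208), with 18.2, 20.3 and 22.1 CPM in null and 24.5, 23.3 and 23.9 CPM in wild-type NMPs. DESeq2 did not call it (adjusted p = 0.056), nor did edgeR when any single library other than null replicate 3 was left out (adjusted p = 0.0516 to 0.104). Cdh24 shares 284 exon bases with a gene on the opposite strand, and how strand was treated in counting is not known here.

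Cdh13 (T-cadherin) is anchored in the membrane by a lipid and has no tail inside the cell. It had 1.06, 1.04 and 1.26 CPM in null NMPs, against 2.2, 2.06 and 1.74 CPM in wild-type NMPs. The groups did not overlap, and it fell by 0.83 (SE 0.223, edgeR adjusted p = 0.0069). The type II cadherin Cdh6, known from the neural plate border and kidney, was at the low end in both groups, with a mean of 0.963 CPM in null and 1.02 CPM in wild-type NMPs (change -0.13, edgeR adjusted p = 0.802).

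Among the non-clustered protocadherins, Pcdh18 had 77.6, 80.6 and 73.5 CPM in null NMPs, against 89.8, 91.7 and 92.8 CPM in wild-type NMPs. Every null library was lower, and it fell by 0.24 (SE 0.0466, edgeR adjusted p = 0.000375). Pcdh1 had 33.4, 31.1 and 36 CPM in null NMPs, against 28.6, 24.6 and 26.7 CPM in wild-type NMPs. It rose by 0.33 without overlap (SE 0.0705, edgeR adjusted p = 0.000952). Pcdh17, later a synaptic protein of the brain, had only 1.76, 0.988 and 0.743 CPM in null NMPs, against 0.612, 0.478 and 0.326 CPM in wild-type NMPs. The null libraries were all higher (change 1.29, SE 0.365, edgeR adjusted p = 0.01, 2.45-fold). Without null replicate 1 the change was 0.89 with an adjusted p of 0.0972, and without wild-type replicate 3 it was 1.09 with an adjusted p of 0.0572.

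Pcdh8 is the mouse counterpart of paraxial protocadherin, which acts in paraxial mesoderm. It had 10.4, 10.7 and 16.1 CPM in null NMPs, against 9.85, 11.3 and 9.35 CPM in wild-type NMPs. Replicate 3 of the null cells stood above the other libraries, and the change of 0.28 was not called (edgeR adjusted p = 0.196). Pcdh19, which binds N-cadherin, had 65, 59.9 and 45.6 CPM in null NMPs, against 63, 61.3 and 49.2 CPM in wild-type NMPs. Replicate 3 was the lowest in both groups, and the change was -0.02 (95% interval -0.43 to 0.38, edgeR adjusted p = 0.934). The single beta gene tested, Pcdhb22, had 2.81, 1.87 and 1.77 CPM in null and 2.14, 1.72 and 1.74 CPM in wild-type NMPs, and its change of 0.21 was not called (edgeR adjusted p = 0.51).

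Of the 10 tested catenins and adaptors, which link classical cadherins to actin, 1 rose and 3 fell in null NMPs. Of the 7 transcriptional repressors of Cdh1, Snai3 rose (0.42) and none fell by edgeR, with none lower at an unadjusted p under 0.05 either. Of the 12 epithelial genes 3 rose and 1 fell. Of the 4 tested desmosomal cadherins, Dsc3 rose (1.03) and Dsg2 fell (-0.63). Of 13 Fat, Dachsous, Celsr, calsyntenin and cadherin-related genes, 3 rose and 6 fell, among them Cdhr1 (0.66) and Fat4 (-0.65). Other cell states moved along with these genes. The NMP markers fell for 7 of 8 genes (sums 1450 to 1530 CPM in null and 1670 to 1840 CPM in wild-type NMPs), and 5 of 7 pluripotency markers rose (520 to 566 CPM in null and 389 to 409 CPM in wild-type NMPs). Of the 4 tested endothelial markers 3 rose, with sums of 40.7 to 51.5 CPM in null and 31.9 to 33.4 CPM in wild-type NMPs, where Emcn was at 0 in the null libraries. Of the 5 tested endoderm markers 3 rose and none fell (sums 82.5 to 106 CPM in null and 65.2 to 70.9 CPM in wild-type NMPs). Of the 6 tested mesenchyme markers 3 rose and 2 fell (270 to 289 CPM in null and 291 to 296 CPM in wild-type NMPs), and of the 5 tested paraxial mesoderm markers 2 rose and 2 fell (429 to 434 CPM in null and 506 to 555 CPM in wild-type NMPs). Their part in the cadherin changes was not tested.

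In neural progenitors without SAG, Hoxb1 went with more RNA of several protocadherins and less of several classical cadherins. Pcdh8 and Pcdh10 rose 2.26-fold and 2.37-fold, Pcdh18 and 10 beta genes rose, and Cdh4, Cdh6, Cdh8 and Pcdh19 fell. Without SAG, 17 of the 49 tested members rose and 11 fell with Hoxb1, 57.1% in all, beside 46.2% of all 16238 genes (24.1% higher and 22.1% lower; median change 0.0031). With SAG present, 9 rose and 20 fell with Hoxb1, 59.2% in all, beside 43.4% of all genes (21.4% higher and 21.9% lower; median 0.0012). The difference of the effects, with SAG minus without SAG, was called for 26 of 49 members, 6 positive and 20 negative. Among all genes this difference was called for 35.5% (16.8% positive and 18.6% negative; median -0.0033).

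The SAG comparisons had the most calls. With Hoxb1 present, 6 of 49 members rose and 40 fell with SAG (93.9%), and without Hoxb1 5 rose and 37 fell (85.7%). Among all genes 36.4% were called higher and 35.8% lower with SAG in the presence of Hoxb1 (72.2% in all, median 0.013). Without Hoxb1 these shares were 36.5% and 36.3% (72.7% in all, median 0.011). By their labels the libraries with SAG are numbered 2533 to 2538 and those without 7390 to 7395, so SAG and the library set cannot be told apart, either in these comparisons or in the difference of the Hoxb1 effects. Each Hoxb1 effect lies within 1 range of numbers. The comparisons share groups, and their values are therefore set side by side for each gene without any measure of likeness between them.

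The 5 type I cadherins together summed to 360 to 380 CPM per library with Hoxb1 and SAG, 427 to 445 CPM with SAG, 488 to 494 CPM with Hoxb1 and 643 to 648 CPM with neither. All 4 tested genes of this class fell with Hoxb1 without SAG, and with SAG 2 rose and 2 fell. All 4 were thus called in both settings, beside 46.2% of all genes without SAG and 43.4% with SAG. Cdh1 had 81.9, 74.2 and 80.6 CPM with Hoxb1 and SAG, 133, 130 and 126 CPM with SAG, 57.6, 61.1 and 65.3 CPM with Hoxb1 and 70.9, 75 and 67.7 CPM with neither. E-cadherin RNA was lower with Hoxb1 in both settings, without overlap. It fell by 0.72 with SAG (SE 0.04, edgeR adjusted p = 1.48e-18, 1.64-fold) and by 0.21 without SAG (SE 0.0504, edgeR adjusted p = 0.000496). The difference of -0.5 was itself called (SE 0.0644, edgeR adjusted p = 3.75e-08). SAG raised Cdh1 by 0.36 with Hoxb1 (edgeR adjusted p = 7.74e-09) and by 0.86 without (edgeR adjusted p = 1.78e-20). Of 12 epithelial genes, 10 fell and none rose with Hoxb1 in SAG by edgeR (none higher at an unadjusted p under 0.05 either), among them Esrp1 (-1), Grhl2 (-0.89), Cldn7 (-0.76) and Epcam (-0.76). Without SAG 5 of the 12 fell and 2 rose with Hoxb1. SAG alone raised 10 of the 12, while Ocln fell (-1.91). Endoderm is an epithelium that also uses E-cadherin. Its 6 markers summed to 145 to 153 CPM with Hoxb1 and SAG and 160 to 164 CPM with SAG. Without SAG they summed to 18.2 to 23.7 CPM with Hoxb1 and 27.3 to 33.2 CPM with neither. Foxa1 and Foxa2 made up most of the sums in SAG. They averaged 39.3 and 100 CPM with Hoxb1 and SAG, and 71.3 and 81.8 CPM with SAG. The other endoderm markers averaged at most 4.05 CPM in those groups. With Hoxb1 in SAG 2 of the 6 endoderm markers rose and 2 fell. Pluripotent cells express E-cadherin as well, and their 7 markers summed to 355 to 384 CPM with Hoxb1 and SAG, 393 to 430 CPM with SAG, 142 to 166 CPM with Hoxb1 and 269 to 305 CPM with neither. With Hoxb1, 3 of these 7 rose and 2 fell in SAG, and all 7 fell without SAG. With SAG, all 7 rose in the presence of Hoxb1, and 3 rose and 1 fell in its absence. None of these endoderm or pluripotency markers was at 0 in any group. The part of either cell type in the Cdh1 values was not tested.

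Cdh2, N-cadherin, had 226, 220 and 229 CPM with Hoxb1 and SAG, 245, 240 and 260 CPM with SAG, 299, 292 and 299 CPM with Hoxb1 and 355, 351 and 350 CPM with neither. Every library with Hoxb1 lay below those of its own control. N-cadherin RNA fell by 0.14 with Hoxb1 in SAG (edgeR adjusted p = 0.000214) and by 0.25 without SAG (SE 0.032, edgeR adjusted p = 2.11e-08), and the difference of 0.1 was not called (95% interval 0.01 to 0.19, edgeR adjusted p = 0.0692). With SAG it fell by 0.4 in the presence of Hoxb1 and by 0.5 in its absence (edgeR adjusted p = 7.53e-18).

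Cdh3 had 27.7, 25.3 and 25.7 CPM with Hoxb1 and SAG, 23, 22.6 and 21.4 CPM with SAG, 10.1, 10.4 and 11.9 CPM with Hoxb1 and 13.6, 16.6 and 12.8 CPM with neither. P-cadherin RNA was thus higher with Hoxb1 in SAG and lower with Hoxb1 without SAG, with no overlap in either pair. The effects were 0.23 with SAG (SE 0.0635, edgeR adjusted p = 0.00306) and -0.41 without (SE 0.1, edgeR adjusted p = 0.00079), and their difference was 0.64 (SE 0.119, edgeR adjusted p = 3.17e-05). With SAG Cdh3 rose 2.43-fold in the presence of Hoxb1 (1.28, edgeR adjusted p = 2.52e-17), and by 0.64 in its absence (edgeR adjusted p = 2.58e-09).

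Cdh4, the R-cadherin known from retina and brain, had 43.9, 40.5 and 40.5 CPM with Hoxb1 and SAG, 38.2, 35.2 and 36.7 CPM with SAG, 127, 125 and 117 CPM with Hoxb1 and 203, 203 and 218 CPM with neither. The groups did not overlap, and the libraries with SAG were all far below those without. With Hoxb1 it rose by 0.18 in SAG (SE 0.0479, edgeR adjusted p = 0.00177) and fell by 0.76 without SAG (SE 0.0394, edgeR adjusted p = 5.81e-20). The difference of 0.94 (SE 0.062, edgeR adjusted p = 3.7e-16) had the smallest adjusted p of any member. The SAG effect was -1.56 with Hoxb1 (2.96-fold lower) and -2.5 without (5.67-fold lower, edgeR adjusted p = 2.62e-37). Cdh4 shares 31 exon bases with another gene on the same strand. Cdh15, the muscle cadherin, was not tested.

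**Figure D2:**
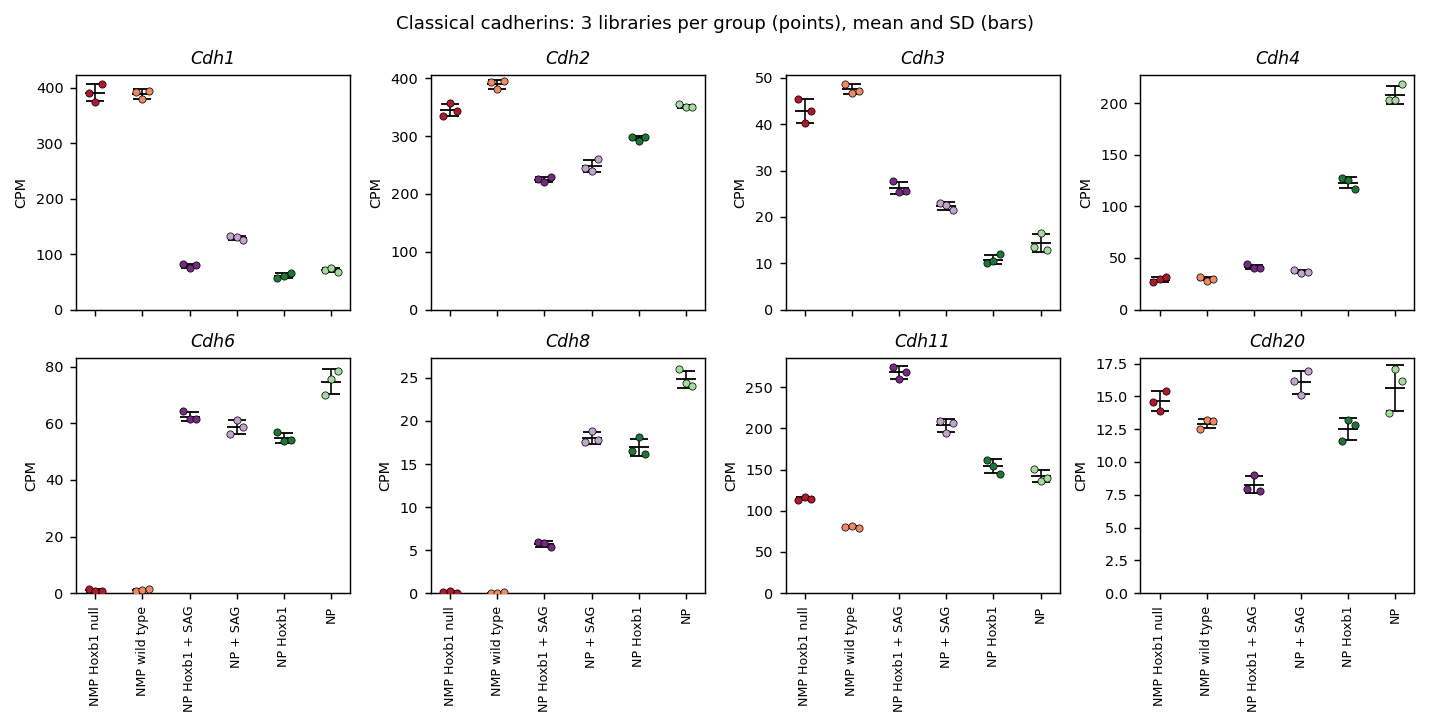
CPM of selected classical cadherins in each library (points) with the mean and SD of each group (bars, n = 3), on linear axes from 0. Cdh1 is highest in the 2 NMP groups, at 375 to 406 CPM, Cdh4 is highest in neural progenitors with neither Hoxb1 nor SAG, at 203 to 218 CPM, and Cdh11 is highest with both, at 260 to 275 CPM.

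The 13 type II cadherins summed to 441 to 450 CPM per library with Hoxb1 and SAG, 391 to 402 CPM with SAG, 357 to 368 CPM with Hoxb1 and 387 to 390 CPM with neither. Of 12 tested, 4 rose and 4 fell with Hoxb1 in SAG (66.7%, beside 43.4% of all genes). Without SAG 1 rose and 3 fell (33.3%, beside 46.2% of all genes). Cdh11, the highest of them per length in every group, had 275, 260 and 269 CPM with Hoxb1 and SAG, 209, 195 and 207 CPM with SAG, 162, 155 and 145 CPM with Hoxb1 and 151, 136 and 140 CPM with neither. Both SAG groups stood above the others and apart from each other, while the groups without SAG overlapped. Hoxb1 raised Cdh11 by 0.4 in SAG (SE 0.0365, edgeR adjusted p = 3.76e-11). Without SAG the rise was 0.11 (SE 0.0422, edgeR adjusted p = 0.0319), which DESeq2 did not call (adjusted p = 0.0579). The edgeR call was also lost with upper-quartile factors (0.0998), with all 18 libraries in the fit (0.053) and in several fits that left out a library (0.0992 to 0.247). The difference of 0.29 was called (edgeR adjusted p = 9.36e-05), and SAG raised Cdh11 by 0.8 with Hoxb1 and by 0.51 without. RNA of markers of mesenchyme, in which Cdh11 is a known cadherin, also differed between these libraries. Its 7 markers summed to 2190 to 2370 CPM with Hoxb1 and SAG and 2190 to 2230 CPM with SAG, with 4 higher and 1 lower with Hoxb1. They summed to 973 to 1010 CPM with Hoxb1 and 436 to 461 CPM with neither, with 5 higher and none lower. Of these 7 markers Col1a2 rose most in CPM, averaging 531 CPM with Hoxb1 and 133 CPM with neither. Dcn (5.63 and 6.42 CPM) and Lum (5.89 and 6.34 CPM) were not higher with Hoxb1 in the same pair. SAG alone raised all 7. The share of these markers in the Cdh11 values was not tested.

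Cdh8 had 5.94, 5.88 and 5.34 CPM with Hoxb1 and SAG, 17.5, 18.8 and 17.8 CPM with SAG, 16.5, 18.1 and 16.2 CPM with Hoxb1 and 26, 24.4 and 24.1 CPM with neither. Libraries with Hoxb1 and SAG together were lowest by far, and the 2 single conditions overlapped. This type II cadherin of the brain fell by 1.66 with Hoxb1 in SAG (SE 0.0799, edgeR adjusted p = 4.33e-21, 3.16-fold) and by 0.56 without SAG (SE 0.0756, edgeR adjusted p = 5.54e-08). The difference was -1.1 (SE 0.112, edgeR adjusted p = 1.13e-10). It shares 23 exon bases with the predicted gene Gm15679 on the opposite strand.

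Cdh6, known from the early neural tube and its crest, had 64.3, 61.4 and 61.4 CPM with Hoxb1 and SAG, 56.1, 61.1 and 58.8 CPM with SAG, 57, 53.6 and 54.2 CPM with Hoxb1 and 70, 75.6 and 78.6 CPM with neither. The group with neither stood above all others, the libraries with both lay just above those with SAG, and the single conditions overlapped. With SAG its change with Hoxb1 of 0.09 was not called (edgeR adjusted p = 0.104), and without SAG it fell by 0.44 (SE 0.0494, edgeR adjusted p = 5.16e-10). The difference of 0.53 was called (SE 0.0656, edgeR adjusted p = 1.25e-08). The SAG effect was 0.18 with Hoxb1 (edgeR adjusted p = 0.000786) and -0.35 without (edgeR adjusted p = 8.01e-09).

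Cdh20 had 7.97, 8.99 and 7.81 CPM with Hoxb1 and SAG, 16.2, 15.1 and 16.9 CPM with SAG, 11.6, 13.2 and 12.8 CPM with Hoxb1 and 13.7, 17.1 and 16.2 CPM with neither. Every library with Hoxb1 lay below its control libraries. It fell by 0.95 in SAG (SE 0.0825, edgeR adjusted p = 6.53e-13) and by 0.33 without (edgeR adjusted p = 0.00449). Cdh10 had 5.59, 5.04 and 5.42 CPM with Hoxb1 and SAG, 8.48, 6.96 and 9.22 CPM with SAG, 14.6, 14.3 and 15.3 CPM with Hoxb1 and 15, 18.3 and 16.2 CPM with neither. It fell with Hoxb1 in SAG (-0.61, edgeR adjusted p = 7.19e-06), and without SAG its change was -0.16 (edgeR adjusted p = 0.175). Both differences were called, at -0.63 for Cdh20 and -0.45 for Cdh10. With SAG Cdh10 fell by 1.46 in the presence of Hoxb1 and by 1.01 in its absence, Cdh8 fell by 1.56 and 0.46 in the same pair of settings, and Cdh20 fell by 0.6 with Hoxb1 and was not called without (0.03).

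Cdh5, the VE-cadherin of endothelium, was rare but followed SAG. It had 2.69, 2.34 and 2.35 CPM with Hoxb1 and SAG, 1.73, 1.59 and 2.08 CPM with SAG, 0.426, 0 and 0.359 CPM with Hoxb1 and 0.516, 0.742 and 0.435 CPM with neither. All libraries with SAG exceeded all without, and 1 library with Hoxb1 alone held no count. SAG raised it by 3.16 with Hoxb1 (SE 0.35, edgeR adjusted p = 1.57e-10) and by 1.66 without (SE 0.311, edgeR adjusted p = 1e-05). The Hoxb1 effect in SAG was 0.45 (edgeR adjusted p = 0.0481), a call lost with DESeq2 (adjusted p = 0.2), upper-quartile factors (0.0632), all 18 libraries in the fit (0.0527) and when any of 5 single libraries was left out (0.0633 to 0.185). The difference of 1.5 (edgeR adjusted p = 0.0347) became 0.97 with an adjusted p of 0.167 when Hoxb1 replicate 2, the library with no count, was left out. Its adjusted p was also above the threshold without replicate 2 of the cultures with SAG alone (1.41, adjusted p = 0.052), without replicate 2 of those with neither (1.26, adjusted p = 0.143) and with DESeq2 (0.0543). The 6 endothelial markers summed to 40 to 41.9 CPM with Hoxb1 and SAG, 43.6 to 46.8 CPM with SAG, 19.5 to 24.2 CPM with Hoxb1 and 34.5 to 36.4 CPM with neither; none of the 6 was at 0 in any of these groups. With Hoxb1 in SAG 1 of the 5 tested markers rose and 3 fell. With SAG 4 of the 5 rose and none fell in the presence of Hoxb1. In its absence 4 rose and 1 fell, Kdr, which averaged 3.68 CPM with SAG and 8.72 CPM with neither. The part of these markers in the Cdh5 values was not tested.

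Other type II cadherins differed mainly between libraries with and without SAG. Cdh22 had 57.5, 60.4 and 55.8 CPM with Hoxb1 and SAG, 60.7, 57.3 and 55.3 CPM with SAG, 70.7, 72.3 and 76.1 CPM with Hoxb1 and 75.1, 75.7 and 79.7 CPM with neither. SAG lowered Cdh22 (-0.33 with and -0.41 without Hoxb1), Cdh7 (-0.94 and -0.76) and Cdh18 (-1.16 and -1.32), and raised Cdh24 (0.57 and 0.5). Hoxb1 gave no call for Cdh7, Cdh18 or Cdh22 in either setting, and Cdh24 was called higher in SAG (0.19, edgeR adjusted p = 0.0221) although its libraries overlapped. This call was lost with DESeq2 (adjusted p = 0.0753), with upper-quartile factors (edgeR, 0.051) and in several edgeR fits that left out a library (0.0537 to 0.145). Cdh12 and Cdh9, both under 1 CPM, had changes of 1.15 and -0.79 with Hoxb1 in SAG (edgeR adjusted p = 0.00678 and 0.0291), and Cdh19 was not tested.

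Of the 5 other numbered cadherins 2 were tested. Cdh13, the higher of them per length, had 24.4, 25.4 and 24.8 CPM with Hoxb1 and SAG, 38.9, 37.7 and 39.1 CPM with SAG, 45.2, 44.5 and 43.7 CPM with Hoxb1 and 58, 58.2 and 56.4 CPM with neither. These 4 groups formed 4 separate levels. T-cadherin RNA was lower with Hoxb1 both in SAG (-0.63, edgeR adjusted p = 1.63e-14) and without SAG (-0.37, edgeR adjusted p = 3.65e-08), with a difference of -0.26 (edgeR adjusted p = 0.00259). With SAG it fell by 0.84 in the presence of Hoxb1 and by 0.58 in its absence. Cdh23, which with Pcdh15 forms the tip links of inner ear hair cells, had 0.616, 1.29 and 0.688 CPM with Hoxb1 and SAG, 0.649, 0.577 and 0.892 CPM with SAG, 3.76, 4.79 and 3.09 CPM with Hoxb1 and 1.62, 2 and 2.39 CPM with neither. It was highest with Hoxb1 alone (change 0.94, SE 0.221, edgeR adjusted p = 0.000489), and in SAG the change of 0.31 was not called. Pcdh15 itself averaged at most 1.57 CPM, and shares 468 exon bases with another gene on the same strand. Hoxb1 gave no call for Pcdh15 in either setting, and SAG lowered it (-1.8 with and -2.45 without Hoxb1).

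The 11 non-clustered protocadherins summed to 386 to 402 CPM per library with Hoxb1 and SAG, 308 to 322 CPM with SAG, 597 to 623 CPM with Hoxb1 and 430 to 451 CPM with neither. Of 10 tested, 3 rose and 4 fell with Hoxb1 in SAG (70%, beside 43.4% of all genes). Without SAG 5 rose and 3 fell (80%, beside 46.2% of all genes). Pcdh8, the paraxial protocadherin, had 183, 183 and 174 CPM with Hoxb1 and SAG, 75.5, 82.3 and 80.7 CPM with SAG, 180, 178 and 177 CPM with Hoxb1 and 75.6, 79.9 and 80.8 CPM with neither. The 6 libraries with Hoxb1 lay between 174 and 183 CPM and the 6 without between 75.5 and 82.3 CPM. Hoxb1 raised it by 1.18 with SAG (SE 0.035, edgeR adjusted p = 1.83e-28, 2.27-fold) and by 1.18 without (SE 0.0392, edgeR adjusted p = 1.38e-26, 2.26-fold). The difference was 0 (95% interval -0.11 to 0.11, edgeR adjusted p = 0.987). The changes with SAG were 0.02 with and 0.01 without Hoxb1, neither called. The 6 paraxial mesoderm markers summed to 16.7 to 18.5 CPM with Hoxb1 and SAG and 11.1 to 11.7 CPM with SAG. Without SAG they summed to 80.2 to 88 CPM with Hoxb1 and 43 to 45.8 CPM with neither. Pax3 made up most of the sums without SAG, at 75 CPM with Hoxb1 and 37.7 CPM with neither. No other marker of this list averaged above 3.75 CPM there. Of the 5 tested paraxial mesoderm markers, 3 rose and none fell with Hoxb1 in SAG, and 1 rose and none fell without SAG. Msgn1 was at 0 in both groups with Hoxb1. Their part in the Pcdh8 values was not tested.

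Pcdh10, which acts in axon outgrowth of the forebrain, had 22.6, 19.8 and 19.8 CPM with Hoxb1 and SAG, 15.2, 15.5 and 14.7 CPM with SAG, 101, 102 and 95 CPM with Hoxb1 and 44.1, 43.6 and 38.1 CPM with neither. All 4 groups were apart, with Hoxb1 alone far above the rest. Hoxb1 raised it by 0.45 in SAG (SE 0.0666, edgeR adjusted p = 4.16e-07) and by 1.24 without (SE 0.0536, edgeR adjusted p = 1.08e-22, 2.37-fold). The difference was -0.8 (SE 0.0863, edgeR adjusted p = 5.4e-10). With SAG it fell by 2.26 in the presence of Hoxb1 (4.8-fold) and by 1.47 in its absence (2.76-fold).

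Pcdh18 had 88.6, 88.8 and 87.6 CPM with Hoxb1 and SAG, 77.4, 81 and 79.2 CPM with SAG, 137, 140 and 128 CPM with Hoxb1 and 83.9, 79.8 and 84.3 CPM with neither. The libraries with Hoxb1 alone stood above all others. The rise with Hoxb1 was 0.16 in SAG (edgeR adjusted p = 0.000578) and 0.71 without (SE 0.0399, edgeR adjusted p = 9.04e-19), with a difference of -0.55 (SE 0.0543, edgeR adjusted p = 4.58e-11). In NMPs, Pcdh18 was lower in the null cells. The other members called in NMPs went both ways. Cdh2 and Cdh13 were lower in null NMPs and with Hoxb1 in both settings. Cdh11 was higher in null NMPs and with Hoxb1 in SAG, and Pcdh17 in null NMPs and with Hoxb1 without SAG. Pcdh1 was higher in null NMPs and lower with Hoxb1 in SAG. Cdh3 and Cdh24 were lower in null NMPs and higher with Hoxb1 in SAG, while Cdh3 was lower with Hoxb1 without SAG.

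Pcdh17 had 22.1, 17.6 and 17.6 CPM with Hoxb1 and SAG, 18.9, 20.5 and 17.6 CPM with SAG, 66.7, 67.4 and 63.4 CPM with Hoxb1 and 50.6, 49.8 and 49.7 CPM with neither. The 2 SAG groups overlapped (change 0, not called), and those without SAG did not (0.4, SE 0.0603, edgeR adjusted p = 1.11e-06). Pcdh9 had 5.63, 6.33 and 5.79 CPM with Hoxb1 and SAG, 6.4, 6.99 and 7.1 CPM with SAG, 19.4, 18.3 and 19.8 CPM with Hoxb1 and 15, 13.5 and 13.6 CPM with neither. In SAG the Pcdh9 libraries with Hoxb1 all lay below their controls, and the change of -0.21 was not called (edgeR adjusted p = 0.0793). Without SAG Pcdh9 rose with Hoxb1 (0.45, edgeR adjusted p = 2.36e-05), and the differences were -0.4 for Pcdh17 and -0.65 for Pcdh9, both called. Neurons express both of these genes. The 7 neuron markers summed to 977 to 1000 CPM with Hoxb1 and SAG, 882 to 905 CPM with SAG, 1970 to 2070 CPM with Hoxb1 and 1450 to 1520 CPM with neither. With Hoxb1 they gave 3 higher and 3 lower in SAG, and 6 higher and 1 lower without SAG, and SAG lowered all 7 in both settings. Their part in these results was not tested.

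**Figure D3:**
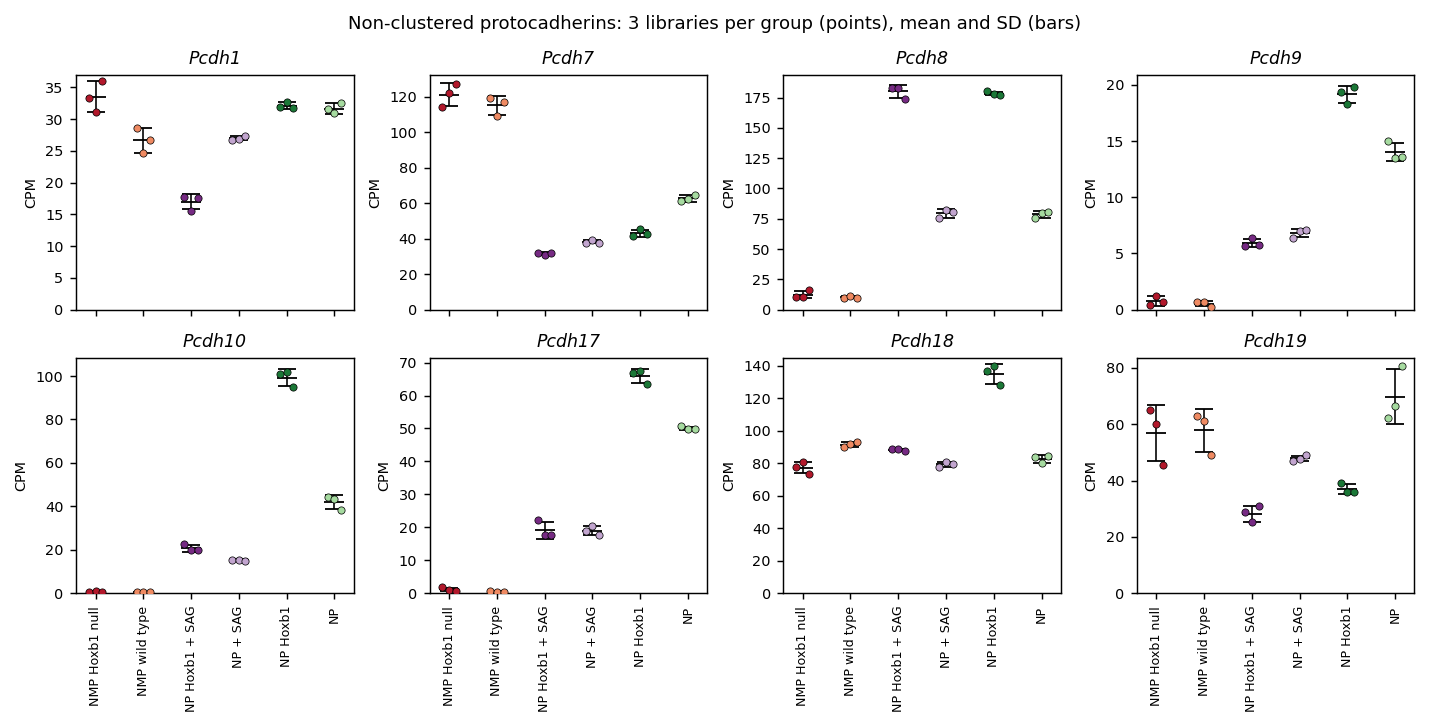
CPM of selected non-clustered protocadherins in each library (points) with the mean and SD of each group (bars, n = 3), on linear axes from 0. Pcdh8 sits between 174 and 183 CPM in all 6 neural progenitor libraries with Hoxb1, while Pcdh10 and Pcdh17 are highest with Hoxb1 alone.

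Pcdh19 had 28.7, 25.2 and 30.8 CPM with Hoxb1 and SAG, 47.1, 47.6 and 49 CPM with SAG, 39.2, 35.8 and 36.1 CPM with Hoxb1 and 62.2, 66.6 and 80.7 CPM with neither. This X-linked gene, mutated in a human epilepsy, was lower with Hoxb1 in every library. It fell by 0.76 in SAG (SE 0.0885, edgeR adjusted p = 1.08e-05) and by 0.91 without (SE 0.0954, edgeR adjusted p = 3.17e-06), and the difference of 0.15 was not called (95% interval -0.14 to 0.44, edgeR adjusted p = 0.422). Pcdh7 had 32, 30.9 and 31.8 CPM with Hoxb1 and SAG, 37.7, 39.1 and 37.5 CPM with SAG, 41.2, 45.2 and 42.7 CPM with Hoxb1 and 61.1, 62.2 and 64.7 CPM with neither. It was lower with Hoxb1 in both pairs without overlap, by a change of -0.27 in SAG (edgeR adjusted p = 8.35e-06) and of -0.54 without SAG (edgeR adjusted p = 4.55e-12).

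Pcdh1 had 17.8, 15.6 and 17.6 CPM with Hoxb1 and SAG, 26.7, 26.9 and 27.4 CPM with SAG, 31.9, 32.7 and 31.7 CPM with Hoxb1 and 31.6, 30.9 and 32.5 CPM with neither. Only the group with both stood far below the rest. Its change with Hoxb1 was -0.67 in SAG (SE 0.0584, edgeR adjusted p = 9.11e-13), and the difference between settings was -0.69 (SE 0.0853, edgeR adjusted p = 1.33e-08). Pcdh20 had 1.01, 0.806 and 0.971 CPM with Hoxb1 and SAG, 2.25, 1.69 and 2.42 CPM with SAG, 2.34, 1.93 and 2.51 CPM with Hoxb1 and 4.5, 4.45 and 4.28 CPM with neither. It was lower with Hoxb1 in SAG (-1.17, edgeR adjusted p = 7.64e-06) and without SAG (-0.95, edgeR adjusted p = 3.16e-05). Pcdh12, known from endothelium, was not tested. Of the 10 tested members of this class 9 fell with SAG in the presence of Hoxb1 and 8 in its absence, and none rose (none at an unadjusted p under 0.05 either). Over all genes 35.8% were called lower with SAG in the presence of Hoxb1 and 36.3% in its absence. Beside those of Pcdh10 and Pcdh15 given above, SAG effects were -1.79 with and -1.39 without Hoxb1 for Pcdh17, -1.69 with and -1.04 without for Pcdh9, and -1.29 with and -1.07 without for Pcdh20. Pcdh18 fell by 0.61 with SAG in the presence of Hoxb1, and in its absence the change of -0.06 was not called (edgeR adjusted p = 0.167).

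The beta protocadherins were lower with SAG. All 21 tested beta genes fell with SAG in the presence of Hoxb1, by changes from -0.54 (Pcdhb17) to -1.63 (Pcdhb2), and 18 of 21 fell without Hoxb1. Their median SAG effect was -1.07 with and -0.46 without Hoxb1. Among all genes 35.8% were called lower with SAG in the presence of Hoxb1 and 36.3% in its absence. With Hoxb1 in SAG 9 beta genes fell and none rose (median -0.24), namely Pcdhb3, Pcdhb4, Pcdhb5, Pcdhb6, Pcdhb7, Pcdhb9, Pcdhb10, Pcdhb11 and Pcdhb20. With Hoxb1 without SAG 10 rose and none fell (median 0.2), namely Pcdhb2, Pcdhb8, Pcdhb9, Pcdhb10, Pcdhb11, Pcdhb16, Pcdhb17, Pcdhb19, Pcdhb21 and Pcdhb22. Pcdhb9, Pcdhb10 and Pcdhb11 were thus called in both settings, in opposite directions. For Pcdhb9 neither call was kept by DESeq2 (adjusted p = 0.144 in SAG and 0.133 without), without a filter on low counts (0.0797 and 0.0829), in fits of all 18 libraries (0.0522 and 0.0614) or of the 2 groups alone (0.0502 and 0.0582), or in most fits that left out a library. At an unadjusted p under 0.05 edgeR gave 11 lower and none higher in SAG, and 11 higher and none lower without SAG. DESeq2 called 6 lower and none higher in SAG, and 8 higher and none lower without SAG. Without a filter on low counts, edgeR called 8 lower and none higher in SAG, and 9 higher and 1 lower without SAG. The called shares of the tested beta genes were 42.9% in SAG and 47.6% without. They were near those of all genes called in either direction, 43.4% in SAG and 46.2% without. In the direction of the beta calls alone, 21.9% of all genes were called lower in SAG and 24.1% higher without. The difference was called for 10 of 21, all of them negative (median -0.34), with 13 negative and none positive at an unadjusted p under 0.05 and 9 negative and none positive by DESeq2. Over all genes edgeR called this difference for 35.5% (18.6% negative and 16.8% positive). The beta genes are near-identical copies in part, and the sources used here do not say how reads with several matches were counted, so the split of counts among single genes is uncertain.

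Pcdhb2 had 4.62, 4.92 and 4.21 CPM with Hoxb1 and SAG, 4.93, 5.48 and 6.2 CPM with SAG, 14.7, 14.2 and 13.6 CPM with Hoxb1 and 9.59, 10.7 and 7.9 CPM with neither. Hoxb1 libraries were highest without SAG (0.59, SE 0.106, edgeR adjusted p = 1.04e-05) and lowest with it, where the change of -0.27 was not called (edgeR adjusted p = 0.0559). The difference was -0.87 (SE 0.158, edgeR adjusted p = 2.4e-05). Pcdhb10 had 2.86, 3.83 and 3.52 CPM with Hoxb1 and SAG, 5.49, 6.13 and 5.35 CPM with SAG, 10.6, 10.7 and 9.77 CPM with Hoxb1 and 8.04, 7.57 and 7.97 CPM with neither. It was called in opposite directions, -0.73 in SAG (SE 0.119, edgeR adjusted p = 2.4e-06) and 0.4 without SAG (SE 0.113, edgeR adjusted p = 0.00333), with a difference of -1.13 (SE 0.164, edgeR adjusted p = 3.83e-07).

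Pcdhb11, the beta gene with the highest level per length in each neural progenitor group, had 15.5, 16.3 and 15.8 CPM with Hoxb1 and SAG, 20.2, 19.9 and 20.2 CPM with SAG, 33.4, 34.1 and 32.3 CPM with Hoxb1 and 28.7, 27.4 and 30.5 CPM with neither. No groups overlapped. Its Hoxb1 effects were -0.34 in SAG and 0.2 without, both called. Pcdhb16, further along the cluster, had 10.7, 9.95 and 10.8 CPM with Hoxb1 and SAG, 8.74, 10 and 10.5 CPM with SAG, 16.3, 15.9 and 15.4 CPM with Hoxb1 and 10.2, 10.3 and 11.6 CPM with neither. It was higher with Hoxb1 alone (0.57, SE 0.0942, edgeR adjusted p = 2.96e-06), and the libraries of the other 3 groups overlapped. Pcdhb12 had 2.2, 2.22 and 2.1 CPM with Hoxb1 and SAG, 2.21, 2.31 and 2.29 CPM with SAG, 6.32, 6.03 and 6.46 CPM with Hoxb1 and 6.12, 6.38 and 6.96 CPM with neither. Its SAG effect was -1.53 with and -1.51 without Hoxb1 (edgeR adjusted p = 7.95e-13 and 5.65e-13), and Hoxb1 gave no call in either setting.

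**Figure D4:**
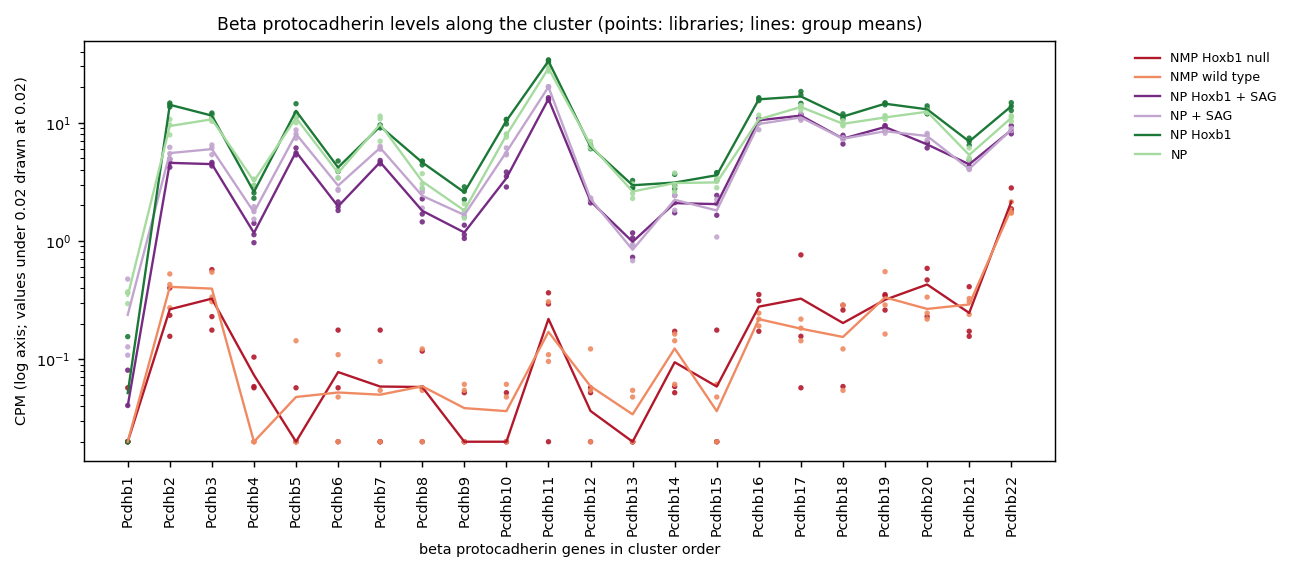
CPM (log axis) of the 22 beta protocadherins in gene order along the cluster, with 3 libraries per group as points and group means as lines. The 2 NMP lines lie at the bottom, where Pcdhb22 has 1.77 to 2.81 CPM in null and 1.72 to 2.14 CPM in wild-type libraries, and among neural progenitors the lines with SAG lie below those without for every gene but Pcdhb1, which stays near the bottom.

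Along the cluster the Hoxb1 effect in SAG was negative for all 10 tested genes from Pcdhb2 to Pcdhb11, between -0.73 and -0.27, and lay between -0.24 and 0.21 from Pcdhb12 to Pcdhb22. For a count the cluster was split at this point after the values had been seen. In the first stretch 8 of 10 tested genes fell with Hoxb1 in SAG (median -0.45), and in the second 1 of 11 did (median 0.05). The difference was called negative for 8 of 10 genes of the first stretch (median -0.72) and 2 of 11 of the second (median -0.25). Without SAG, Hoxb1 raised 5 of 10 genes of the first stretch and 5 of 11 of the second. Over all genes 21.9% were called lower with Hoxb1 in SAG and 24.1% higher without SAG, and 18.6% had a called negative difference. No test was made of this split, which was chosen on these values, and neighbouring genes of the cluster may share reads.

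Of the alpha and gamma genes only 2 of 36 symbols were matched in the table, Pcdha11 and Pcdhgc4, and whether these rows also hold reads of other genes of those clusters was not tested. Pcdha11 had 30.2 ± 0.0637 CPM with Hoxb1 and SAG, 35.5 ± 1.1 CPM with SAG, 54.3 ± 3.31 CPM with Hoxb1 and 58.6 ± 1.1 CPM with neither (SD, n = 3 each). It fell with Hoxb1 in SAG (-0.23, edgeR adjusted p = 0.000187) and with SAG (-0.85 with and -0.73 without Hoxb1), and was not called for Hoxb1 without SAG. Of 13 regulators of clustered protocadherins, Hoxb1 raised 2 and lowered 4 in SAG and raised 4 and lowered 6 without. SAG raised 5 and lowered 5 with Hoxb1, and raised 3 and lowered 5 without. Dnmt3b, a DNA methyltransferase that methylates promoters of the clustered genes, averaged 84.3 CPM with Hoxb1 and SAG, 222 CPM with SAG, 23.7 CPM with Hoxb1 and 24.3 CPM with neither. Its change with Hoxb1 in SAG was -1.4, and that with SAG was 1.83 with and 3.19 without Hoxb1. The part of Dnmt3b or of the other regulators in the beta gene values was not tested. Neurons are known to express clustered protocadherins. Their markers summed, as given beside Pcdh9, to 1970 to 2070 CPM with Hoxb1 and 1450 to 1520 CPM with neither, and to 1000 CPM at most with SAG, and their part in the beta gene values was not tested.

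**Figure D5:**
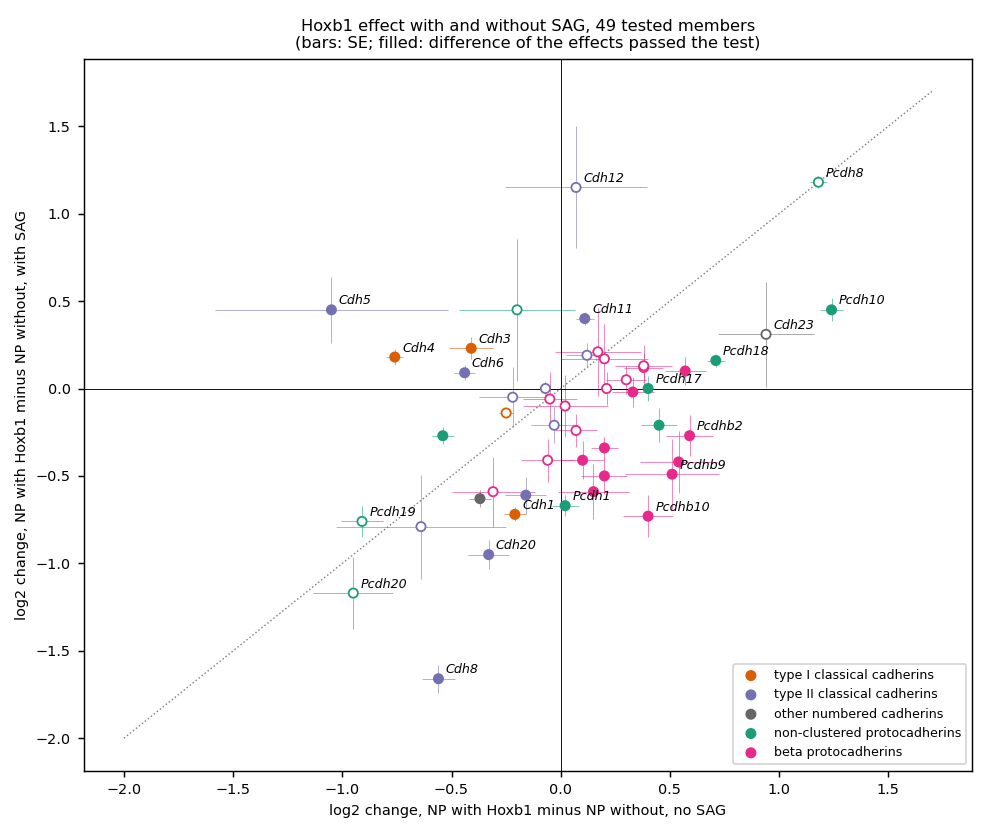
Hoxb1 effect with SAG (vertical axis) against the Hoxb1 effect without SAG (horizontal axis), log2, for the 49 tested members, coloured by class, with SE bars and the diagonal of equal effects; filled points passed the test of the difference. Pcdh8 and Pcdh19 lie near the diagonal, Cdh4 and Cdh3 lie above it, and Cdh8, Pcdh10 and Pcdhb10 lie below it.

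Genes with called differences fell on both sides of the diagonal in the plot of Hoxb1 effects with and without SAG. The positive side held 2 type I, 3 type II and 1 non-clustered member (Cdh3, Cdh4, Cdh5, Cdh6, Cdh11 and Pcdh7). The negative side held 10 beta genes, 5 non-clustered protocadherins (Pcdh1, Pcdh9, Pcdh10, Pcdh17 and Pcdh18), Cdh1, Cdh8, Cdh10, Cdh13 and Cdh20. Cdh2, Pcdh8 and Pcdh19 were without a call. Hoxb1 itself was 1.83-fold higher with SAG than without among the cultures given DOX, and its own difference of 0.52 was not called (edgeR adjusted p = 0.441).

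Partners and relatives of the cadherins, taken from lists chosen with earlier results known, were counted in the same tests. Of 10 tested catenins and adaptors 3 rose and 4 fell with Hoxb1 in SAG, and 4 rose and 3 fell without SAG. Among them Ctnnd1, p120-catenin, rose by 0.24 with SAG and 0.26 without, Ctnna2, the neural alpha-catenin, rose by 0.34 in SAG, and Jup, plakoglobin, fell by 0.33 in SAG. Both tested desmosomal cadherins fell with Hoxb1 in both settings, Dsc2 by 0.79 in SAG and 1.06 without. Of the repressors of Cdh1, 4 of 7 rose with Hoxb1 in SAG, Twist2 (0.75), Snai2 (0.51) and Twist1 (0.46) among them, and Zeb1 fell (-0.17). None of the 7 was called for Hoxb1 without SAG by edgeR, where 2 were higher and none lower at an unadjusted p under 0.05. With SAG alone 4 of the 7 rose, Twist2 (2.71), Snai1 (2.63), Snai2 (1.48) and Twist1 (1.22), and 1 fell. Of 14 Fat, Dachsous, Celsr, calsyntenin and cadherin-related genes 4 rose and 3 fell with Hoxb1 in SAG, and 6 rose and 3 fell without. Clstn2 (1.34), Celsr1 (0.79) and Fat3 (0.77) rose in SAG, Fat4 (0.73) rose without SAG, and the protocadherin Pcdh11x fell in both (-1.42 and -1.36). The adhesion gene Nectin3 rose by 0.93 with Hoxb1 in SAG and fell by 0.65 without, with a difference of 1.58. Adam10, a protease that sheds cadherins, rose with Hoxb1 by 0.26 in SAG and 0.44 without.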

How the data were processed

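The values deposited by the authors are raw read counts per Ensembl gene for 37224 genes in 18 libraries, with exon coordinates and summed exon length in the same table. Per the submitters' processing notes, bcl2fastq 1.8.2 and featureCounts 1.4.6 were used, on mm10. Aligner, annotation release, strand setting and treatment of reads with several matches are not stated in the sources used here.

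Ensembl IDs were matched to symbols, and groups were taken from the labels. The analysis ran in R 4.3.3 with edgeR 4.0.16: filterByExpr by group, TMM factors (0.972 to 1.03), robust quasi-likelihood F-tests and Benjamini-Hochberg adjustment over all tested genes, with calls below an adjusted p of 0.05. NMPs (6 libraries, 15032 genes) and neural progenitors (12 libraries, 16238 genes, 1 mean per group) were fitted apart, with no replicate term. The standard error was computed as change over root F. CPM uses effective library sizes. The code was tested on simulated data. No 2 libraries of a group agreed within sampling noise (chi-square per gene 1.35 or more).

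Members and lists were chosen with earlier results of these data known, although the symbol rule that took the members used no measured value. Named are called members whose higher group reaches 1 CPM, and Cdh1, Cdh2, Cdh3, Cdh6, Cdh11, Pcdh8, Pcdh19 and Hoxb1 whatever their value; values are printed in full for those the text turns on, and beta genes are otherwise given by count and range. From other lists up to 4 called genes were named. Alternatives were DESeq2 1.42.0, upper-quartile factors, no and a stricter filter (50 counts), other sets of libraries in the fit, a replicate block and leaving out each library.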

Additional observations from a re-analysis of the deposited data

Results flagged for a closer look

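For 26 of the 49 tested members (53.1%) the Hoxb1 effect in neural progenitors differed between cultures with and without SAG. This was by edgeR's test of the difference itself (with SAG minus without SAG, log2), which called 35.5% of all genes. SAG and the library set cannot be told apart for any of these members. Among the classical cadherins the difference was 1.5 for Cdh5, 0.94 for Cdh4, 0.64 for Cdh3, 0.53 for Cdh6 and 0.29 for Cdh11. It was -1.1 for Cdh8, -0.63 for Cdh20, -0.5 for Cdh1 and -0.45 for Cdh10. For Cdh13, which is no classical cadherin, it was -0.26. Among the non-clustered protocadherins it was 0.27 for Pcdh7, -0.8 for Pcdh10, -0.69 for Pcdh1, -0.65 for Pcdh9, -0.55 for Pcdh18 and -0.4 for Pcdh17. Among the beta genes it was -1.13 for Pcdhb10, -1 for Pcdhb9, -0.96 for Pcdhb8, -0.87 for Pcdhb2, -0.75 for Pcdhb6, -0.7 for Pcdhb5, -0.54 for Pcdhb11, -0.52 for Pcdhb3, -0.46 for Pcdhb16 and -0.35 for Pcdhb22. The call for Pcdhb22 was lost with DESeq2 (adjusted p = 0.0981) and with all 18 libraries in the edgeR fit (0.056). It was also lost in several edgeR fits that left out a library (0.0601 to 0.114). The call for Cdh10 was lost without replicate 3 of the cultures with SAG alone (edgeR adjusted p = 0.0558), and that for Cdh5 as described above.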

How the results depend on the processing

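Counts of called members stayed within 1.5 times their value under every alternative run in the neural progenitor comparisons. In NMPs the 3 members higher in null cells became 5 without a filter on low counts and 5 with all 18 libraries in the fit. The 5 lower members became 2 with DESeq2, 3 with the stricter filter and 3 to 5 when single libraries were left out. Of 2538 alternative values of the 186 single-gene results, 2416 kept their direction and their side of the threshold, 99 lost and 5 gained a call, and 18 changed sign. All 18 sign changes were of changes that were not called. When single libraries were left out, the NMP changes ran from -0.13 to 0.11 for Pcdh19, from -0.02 to 0.04 for Cdh1 and from -0.5 to 0.12 for Cdh6. On the same terms the difference for Pcdh8 ran from -0.03 to 0.03 and its SAG effect without Hoxb1 from -0.02 to 0.05. Without a filter on low counts Cdh1 in NMPs was -0.01, and the difference for Pcdh8 was 0 there and with DESeq2. The cause was not tested. Same-numbered libraries did not deviate together in all pairs (correlations of at most 0.16). With 3 libraries per group this cannot tell whether the numbers pair samples, and the main fits treated the libraries as unpaired. With a replicate block the called members numbered 8 in NMPs, 30 and 28 for Hoxb1 with and without SAG, 26 for the difference, and 46 and 43 for SAG with and without Hoxb1. Calls lost under DESeq2 included Cdh13 in NMPs (adjusted p = 0.0516), Cdh24 in NMPs (adjusted p = 0.056) and the difference for Cdh5 (adjusted p = 0.0543). Low counts limit what can be said of the members under 1 CPM, among them 21 of the 22 beta genes in NMPs.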
